A study of Mus musculus with 6 samples.

Results

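The mitochondrial ribosomal protein genes were taken from the deposited table of cultured mouse cortical cells as the rows whose symbol is Mrpl or Mrps followed by a number and at most 1 letter. The rule found 78 genes of 17920 in the table, 49 of the large subunit (Mrpl) and 29 of the small subunit (Mrps). RNA-seq was performed on 3 WT and 3 KD libraries of cells taken from the mouse embryonic cortex at E13.5 and grown in culture. WT cells, named Ctrl in the table, received control lentivirus, and KD cells received lentivirus carrying an shRNA against Ybx1, which encodes a cold shock protein that binds DNA and RNA. Both groups went through puromycin selection, and the sources used here do not say which hairpin was used. The labels name mouse cortex with WT or KD, but the study's methods describe a knockdown in culture and no deletion in these cells. The replicates are described there as independent experiments.

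Mitochondria make a small set of proteins from their own genome, nearly all of them core subunits of the oxidative phosphorylation complexes, on ribosomes of their own. The RNAs of these ribosomes are transcribed from mitochondrial DNA, whereas all of their proteins are encoded in the nucleus, made in the cytosol and imported. The small subunit binds the mRNA and reads its codons, and the large subunit joins the amino acids. Some of the proteins have bacterial counterparts, and the others are particular to mitochondria.

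Of the 78 genes, 33 (42.3%) started head to head with another protein-coding gene within 1000 bases, counted on GENCODE vM21, against 15.4% of the 13371 tested protein-coding genes. Within a window from 250 bases before to 50 after the RefSeq start (GRCm38.p6), which was available for 69 of the 78 genes, 3 motifs that are common in housekeeping promoters were searched on both strands. The ETS-factor motif CCGGAAG was found in 37.7% of the 69 windows and in 18.9% of the windows of 10899 tested genes. The NRF1 motif GCGCANGCG was found in 23.2% against 14.8%, and the YY1 motif AANATGGCG in 15.9% against 5.54%, where the final letters of the YY1 motif may also begin an NRF1 motif. At least 1 motif was present in 43 of the 69 windows (62.3%), against 33.7%. A match is a description of the letters and was not tested as a binding site. The sequences that end just before the RefSeq start are shown for Mrpl3 and Mrpl49, the 2 genes higher in KD that had a usable window. Mrpl13 and Mrpl54 had no window, and that of Mrps17 lay at a later start of the gene. The Mrpl3 stretch holds the most frequent motif. The Mrpl49 stretch reaches from a gene of the mitochondrial ribosome to a gene of the cytosolic ribosome. GENCODE places the starts further upstream, so that the last 29 bases of the Mrpl3 stretch and the last 30 of the Mrpl49 stretch lie in the first exon of the GENCODE models, whose coordinates are given with each gene. Capitals mark the ETS motif, which lies within those 29 bases.
Mrpl3 (GRCm38.p6, chr9:105053148-105053267, plus strand): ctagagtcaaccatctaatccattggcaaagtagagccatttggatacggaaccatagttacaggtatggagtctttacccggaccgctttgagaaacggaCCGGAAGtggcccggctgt
Mrpl49 (GRCm38.p6, chr19:6057756-6057843, minus strand): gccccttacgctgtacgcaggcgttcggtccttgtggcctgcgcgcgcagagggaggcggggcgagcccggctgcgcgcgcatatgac
The Mrpl49 stretch is 88 bases long because it was cut where the first exon of Fau begins on the other strand, and it holds none of the 3 motifs. Fau encodes a protein of the small cytosolic ribosomal subunit fused to a ubiquitin-like protein, and the GENCODE starts of both genes are 59 bases apart.

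The deposited values are estimated counts, which were rounded and scaled to library size (CPM), and TPM, which also divides by transcript length. The libraries held between 16294635 and 16497505 estimated counts. Ybx1 was at 618, 615 and 653 CPM in the WT libraries and at 98.3, 92.2 and 159 CPM in the KD libraries. Its log2 fold change was −2.43 (SE 0.18, edgeR quasi-likelihood test, adjusted p = 0.00018), with KD replicate 3 keeping the most. The Y-linked gene Eif2s3y was at 0.25 TPM in WT replicate 2 and 0.18 TPM in KD replicate 2 but between 27.9 and 48.1 TPM in the other 4 libraries, so the counts below are also given without both replicate 2 libraries. The cells carried the cortical markers Emx1 and Lhx2 at 21.4 TPM or more in each library, and Lhx2 was higher in KD, by 0.62 on the log2 scale (edgeR adjusted p = 0.0106). The intermediate progenitor markers Eomes, Neurog2 and Insm1 were higher in KD in 3 of 3 cases, by 1.57, 1.58 and 1.42 on the log2 scale, and their summed level ran from 23.96 to 33.1 TPM in WT and from 73.1 to 92.9 TPM in KD. Among the other lists, 2 of 8 progenitor and 1 of 6 neuron markers were higher, 1 of 4 oligodendrocyte markers was lower, and 0 of 3 tested astrocyte markers changed (0 also at an unadjusted p under 0.05). For comparison, 12% of all genes tested were higher and 11.9% lower. Microglial, endothelial, mesenchymal and erythroid markers stayed at 1.36 TPM or less in all libraries. The part of these differences in cell type markers in the results below was not tested, and in bulk RNA fewer cells of a type cannot be told apart from less RNA per cell.

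All 78 genes passed the filter on low counts, with 76 to 1202 estimated counts per gene and library. Levels compared between genes are given here in TPM. The mean over the 6 libraries ran from 10.5 TPM for Mrpl17 to 348 TPM for Mrps21, a 33.3-fold range, but 60 of the 78 genes lay between 30 and 150 TPM. Without division by length both genes were close, with WT means of 33.3 CPM for Mrpl17 and 30.9 CPM for Mrps21. The ranking in TPM thus depends on the transcript lengths used, and the annotation behind them is not given in the sources used here. The median gene stood at 65.8 TPM, against 22.8 TPM over all genes tested. Large-subunit genes had a median of 73.5 TPM and small-subunit genes 61.1 TPM.

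The highest level was that of Mrps21, a small-subunit protein with a bacterial counterpart, at 287, 345 and 326 TPM in WT and 365, 408 and 357 TPM in KD. Mrpl42 followed at 328, 306 and 285 TPM in WT and 307, 332 and 292 TPM in KD, and its groups overlapped. Mrpl52, a large-subunit protein particular to mitochondria, was at 238, 260 and 220 TPM in WT and 281, 274 and 287 TPM in KD. In TPM the KD libraries of Mrps21 and Mrpl52 all stood above the WT libraries, but in CPM the groups of both overlapped and neither passed the quasi-likelihood test (adjusted p = 0.172 and 0.300). Mrpl30 averaged 244 TPM and Mrpl33 238 TPM, a difference smaller than the SD of either gene among the KD libraries. At the other end, Mrpl17 was at 10.3 ± 0.49 TPM in WT and 10.6 ± 0.33 TPM in KD (SD, n = 3). Mrpl19 averaged 11.7 TPM and Mrpl1 13.2 TPM, with overlapping groups in both cases.

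Of the 78 genes, 5 were higher in KD and 0 were lower at an adjusted p under 0.05 over the 13669 genes tested. This is 6.41% of the genes higher, where 12% of all genes tested were higher, and none lower, where 11.9% of all genes tested were lower. At an unadjusted p under 0.05 there were 7 higher and 4 lower genes, where 2591 and 2594 of the 13669 genes tested were. DESeq2 called 3 higher (Mrpl3, Mrpl13 and Mrpl54) and 0 lower, where it called 10.2% of all genes tested higher and 9.99% lower. Limma-voom called 4 higher and 0 lower, against 12% and 11.8% of all genes tested. With upper-quartile scaling in edgeR, Mrpl3 and Mrpl13 were higher and Mrpl36 was lower, where 1392 of the 13669 genes tested were higher and 1845 lower. The log2 fold changes ran from −0.24 to 0.38, with 40 above and 38 below 0 and a median of 0.0047. The median absolute log2 fold change was 0.09, against 0.16 over all genes tested. In size, 3 genes (3.85%) moved by at least 1.2-fold, where 29.6% of all genes tested did. The KD libraries all lay above the WT libraries in CPM for 10 genes, where this was so for 21% of all genes tested, and all below for 6 genes, where it was so for 20.6%.

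**Figure D1:**
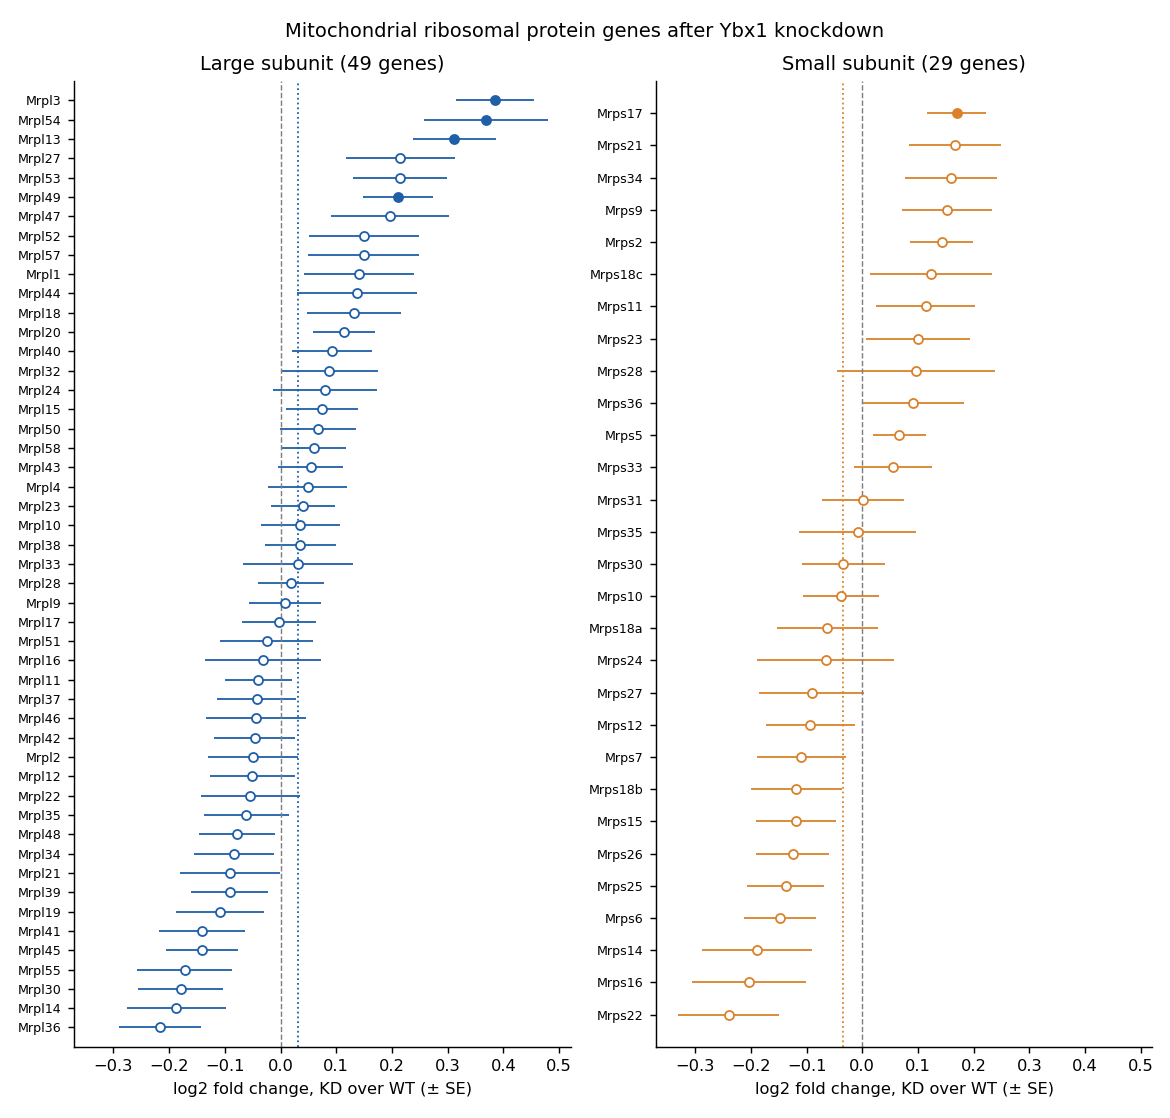
Log2 fold change of each of the 78 genes, KD over WT, with its standard error (horizontal axis), for the large subunit on the left and the small subunit on the right. Filled points passed an adjusted p of 0.05, dotted lines mark the subunit medians (0.03 and −0.03), and the 5 filled points all lie to the right of 0.

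Mrpl3, a core protein of the large subunit with a bacterial counterpart, changed most. It lies at chr9:105053239-105079888 (GRCm38, plus strand). Its level was 38.4, 43.8 and 37.0 CPM in WT and 51.5, 52.0 and 52.2 CPM in KD. All KD libraries stood above all WT libraries, and the KD libraries were closer to each other than the WT libraries were. The log2 fold change was 0.38 (SE 0.07, edgeR quasi-likelihood test, adjusted p = 0.00577), and it passed the threshold under 17 of 17 alternative settings.

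Mrpl54, a large-subunit protein particular to mitochondria, lies at chr10:81264713-81266934 (minus strand), 26 bases from the start of Apba3. It was at 15.8, 15.6 and 12.1 CPM in WT and 18.8, 18.6 and 18.9 CPM in KD. The groups did not overlap, and WT replicate 3 lay apart from the other WT libraries. The log2 fold change of 0.37 (SE 0.11, edgeR adjusted p = 0.0416) no longer passed without WT replicate 2 or 3 or without any 1 of the KD libraries, with adjusted p between 0.0678 and 0.103 in edgeR. Calls were fewer over all genes tested whenever 1 library was left out. Then 779 to 1612 genes were higher, against 1646 with all libraries, and 797 to 1583 lower, against 1631. This also holds for the calls lost in this way below. Apba3 itself was at a log2 fold change of 0.02 (adjusted p = 0.872).

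Mrpl13, a large-subunit protein with a bacterial counterpart, lies at chr15:55534094-55557748 (minus strand). It was at 24.0, 24.7 and 22.8 CPM in WT and 31.4, 30.02 and 27.4 CPM in KD, without overlap. The log2 fold change was 0.31 (SE 0.07, edgeR adjusted p = 0.0178), and leaving out KD replicate 1 or 2 raised the adjusted p to 0.0573 or 0.0676. Its exons overlap those of Mtbp on the other strand, over 4.16% of its exon bases, and whether the counting used strand is not given in the sources used here. The value for Mtbp was 0.46 on the log2 scale (edgeR adjusted p = 0.103).

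Mrpl49, a large-subunit protein particular to mitochondria, lies at chr19:6053622-6057785 (minus strand), 59 bases from the start of Fau. Its level was 41.2, 41.5 and 37.2 CPM in WT and 46.4, 47.5 and 44.9 CPM in KD, so that the highest WT library stayed below the lowest KD library. The log2 fold change was 0.21 (SE 0.06, edgeR adjusted p = 0.0391), and the call was lost when any 1 library was left out (adjusted p from 0.0594 to 0.132). The log2 fold change of Fau was −0.15 (edgeR adjusted p = 0.0736).

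Mrps17, a small-subunit protein with a bacterial counterpart, lies at chr5:129715497-129722556 (plus strand) and was the only small-subunit gene past the threshold. Its level was 39.6, 42.0 and 40.5 CPM in WT and 46.3, 45.3 and 45.8 CPM in KD. The groups were tight and did not overlap, with SDs of 1.21 and 0.54 CPM. The log2 fold change of 0.17 (SE 0.05, edgeR adjusted p = 0.0473) was close to the threshold and passed it under 6 of 17 alternative settings. It was lost when any 1 library was left out (adjusted p from 0.0787 to 0.140).

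Replicate numbers paired the libraries, as described with the processing, and adding the number as a block to the model called 7 genes higher and 2 lower. In that fit 18.6% of all genes tested were higher and 18.1% lower. The block added Mrpl27 and Mrpl53 among the higher genes. Mrpl27, whose bacterial counterpart reaches toward the catalytic centre, was at 26.0, 24.1 and 20.99 CPM in WT and 30.1, 25.3 and 27.2 CPM in KD, with overlapping groups but a higher KD library in 3 of 3 pairs (log2 fold change 0.21, edgeR adjusted p = 0.143 without and 0.0347 with the block). Mrpl53 was at 19.1, 18.1 and 16.9 CPM in WT and 21.5, 21.7 and 19.6 CPM in KD, without overlap (log2 fold change 0.21, edgeR adjusted p = 0.0957 without and 0.0392 with the block). Of the Mrpl53 exon bases 87.97% overlap exons of other genes, Gm42688 on the same strand and Ccdc142os on the other, and for Mrpl27 the share is 7.61%, with Eme1 on the other strand. Both are large-subunit genes.

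The genes that the block placed among the lower ones were Mrpl36 and Mrps22, which also had the lowest log2 fold changes of their subunits. Mrpl36, a small large-subunit protein with a bacterial counterpart, was at 26.1, 28.7 and 27.5 CPM in WT and 22.1, 24.3 and 24.4 CPM in KD. No KD library reached the lowest WT library, and the log2 fold change was −0.22 (SE 0.07, edgeR adjusted p = 0.0605 without and 0.0221 with the block). Mrps22, a small-subunit protein particular to mitochondria, was at 26.6, 28.8 and 23.4 CPM in WT and 22.2, 23.5 and 21.03 CPM in KD. WT replicate 3 lay just under KD replicate 2, and the log2 fold change was −0.24 (SE 0.09, edgeR adjusted p = 0.0858 without and 0.0166 with the block). These 4 genes were named after their values were seen. Without both replicate 2 libraries and with the block, 6 genes were higher and 0 lower, where 13.4% of all genes tested were higher and 12.4% lower. Mrps17 and Mrpl53 were then not among the higher genes, and Mrpl57 was. Few libraries were left to measure the spread in that fit, where Ybx1 had an edgeR adjusted p of 3.68e-229. The calls of that fit are therefore not on a par with those from all 6 libraries.

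**Figure D2:**
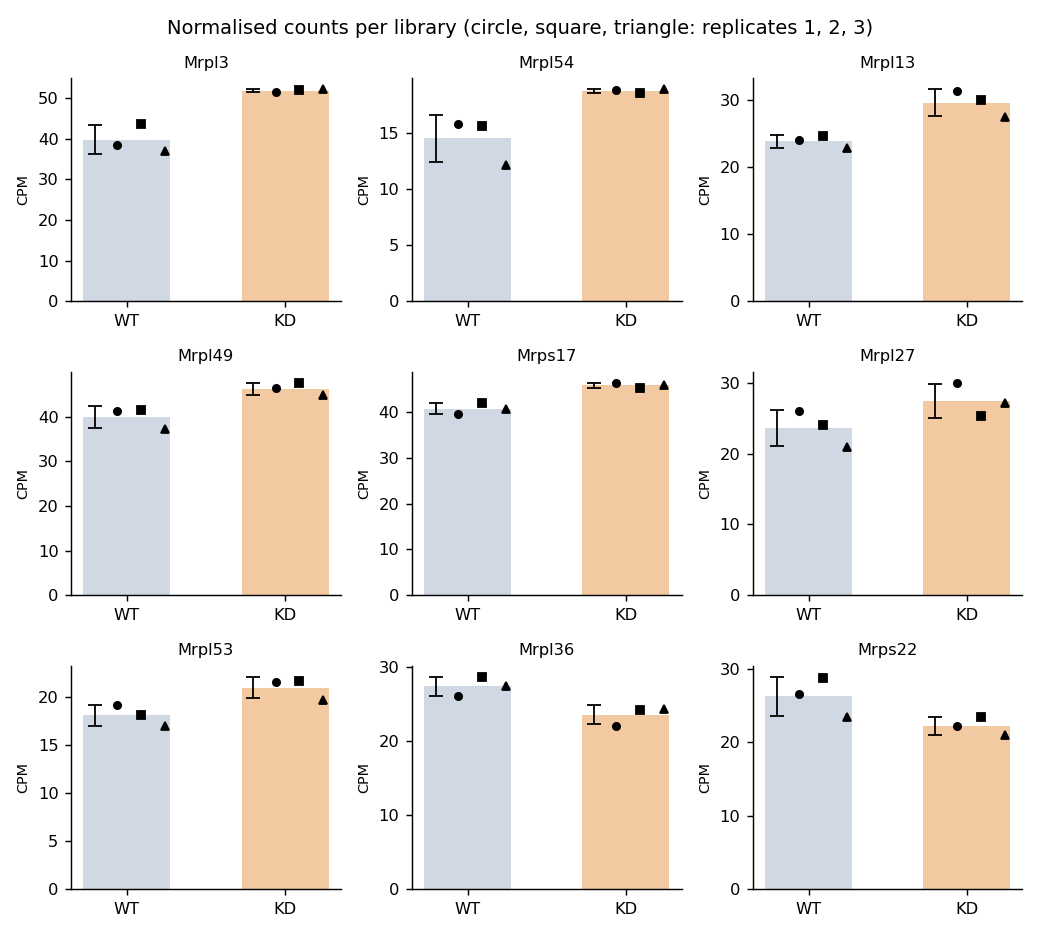
Level in CPM (vertical axes, from 0) of the 5 genes past the threshold and the 4 added by the replicate block, in WT and KD. Bars are group means, error bars are SD over 3 libraries, and circle, square and triangle are replicates 1, 2 and 3. The KD libraries lie above all WT libraries for Mrpl3, Mrpl54, Mrpl13, Mrpl49, Mrps17 and Mrpl53, below all for Mrpl36, and overlap for Mrpl27 and Mrps22.

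Between the subunits, 4 of 49 large-subunit genes were higher and 0 lower, with a median log2 fold change of 0.03 and 27 genes above 0. Of the 29 small-subunit genes 1 was higher and 0 lower, with a median of −0.03 and 13 above 0. The shares higher were 8.16% for the large and 3.45% for the small subunit. Of all genes tested, 12% were higher and 11.9% lower. At an unadjusted p under 0.05 the large subunit had 5 higher and 2 lower genes, and the small subunit 2 and 2. Over the 13669 genes tested, 2591 were higher and 2594 lower at that p. The small-subunit median was above 0 on log2(TPM + 1) (0.046), without both replicate 2 libraries (0.065) and without WT replicate 2 (0.026), and without WT replicate 3 the large-subunit median was below 0 (−0.012). The difference between the subunits was not tested. In the mammalian structure the products of Mrps30 and Mrps18a sit in the large subunit and that of Mrps36 belongs to the oxoglutarate dehydrogenase complex. With the genes assigned in that way, the medians were 0.02 over 51 large-subunit and −0.02 over 26 small-subunit genes. The 47 genes with a bacterial counterpart held 3 higher genes and had a median of −0.0028, and the 31 without one held 2 higher genes and had a median of 0.04.

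Summed over the genes, the large subunit stood at 1569, 1600 and 1447 CPM in WT and at 1555, 1555 and 1579 CPM in KD. The small subunit stood at 864, 903 and 811 CPM in WT and at 841, 855 and 864 CPM in KD. The groups overlapped for both subunits on this scale, and the KD mean was 101.6% and 99.3% of the WT mean. The ratio of the summed large to the summed small subunit was 1.81, 1.77 and 1.78 in WT and 1.85, 1.82 and 1.83 in KD, again in CPM. In TPM the ratio was 1.84, 1.76 and 1.76 in WT and 1.82, 1.79 and 1.82 in KD, so that the groups did not overlap in CPM but overlapped in TPM.

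In TPM the same sums separated. Large-subunit genes summed to 4253, 4267 and 3938 TPM in WT and 4421, 4438 and 4453 TPM in KD, and small-subunit genes to 2307, 2425 and 2234 TPM in WT and 2431, 2481 and 2450 TPM in KD. All KD libraries were above all WT libraries, with the KD mean at 106.9% and 105.7% of the WT mean. The 78 genes together made up between 0.617% and 0.692% of the TPM of a library. WT replicate 3 was the lowest of the 6 libraries for 44 of the 78 genes in CPM and the highest for 1. Without it the KD mean of all 78 genes was 104% of the WT mean in TPM and 97.9% in CPM, against 106.4% and 100.8% with it. On the TPM scale, where the median of all genes tested was 0.05, limma on log2(TPM + 1) called 11 of the 78 genes higher and 0 lower, where it called 15.2% of all genes tested higher and 7.84% lower. It added Mrpl20, Mrpl47, Mrpl52, Mrpl53, Mrps2 and Mrps34 to the 5 genes above, and the subunit medians were 0.09 and 0.05. The cytosolic ribosomal protein genes took 130070, 128320 and 129340 TPM in WT and 119560, 115690 and 118280 TPM in KD, and TPM values of a library share 1 fixed total. The part of that fall in the higher TPM sums was not tested.

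**Figure D3:**
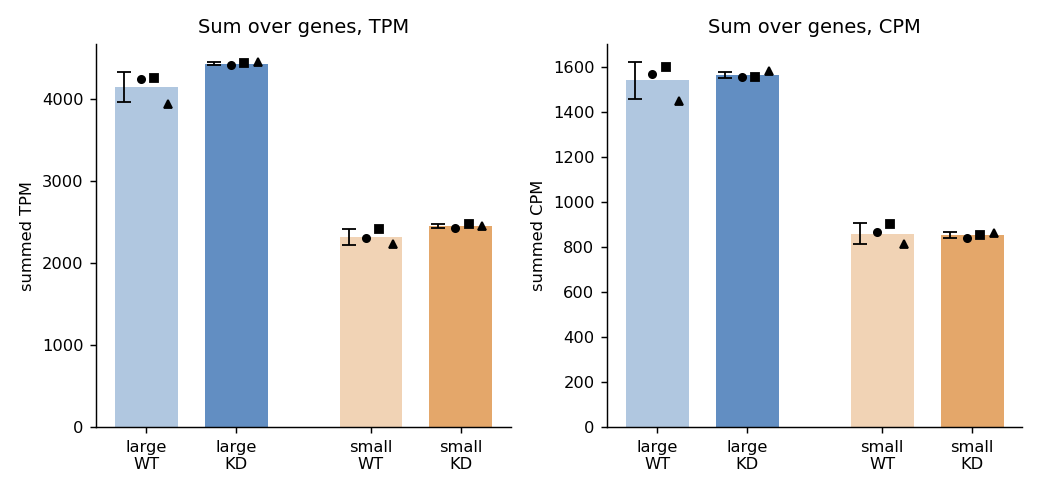
Sum over the 49 large-subunit and the 29 small-subunit genes in each library (vertical axes, from 0), in TPM on the left and CPM on the right. Bars are group means, error bars are SD over 3 libraries, and circle, square and triangle are replicates 1, 2 and 3. KD libraries lie above all WT libraries in TPM but overlap with them in CPM.

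Several members have duties or places that set them apart, and none of those chosen by name passed the test. In the same test 12% of all genes were higher and 11.9% lower. Mrpl12, which also binds the mitochondrial RNA polymerase, was at 47.8, 51.4 and 42.5 CPM in WT and 46.0, 47.2 and 43.6 CPM in KD (log2 fold change −0.05, edgeR adjusted p = 0.664). Mrpl58, a peptidyl-tRNA hydrolase that became part of the large subunit, was at 36.7, 36.5 and 34.0 CPM in WT and 37.6, 37.4 and 36.7 CPM in KD (0.06, edgeR adjusted p = 0.493). Mrps12, a protein of the decoding centre, starts 172 bases from Sars2, the mitochondrial seryl-tRNA synthetase gene, and both had log2 fold changes near 0 (−0.09, adjusted p = 0.428, and −0.05, adjusted p = 0.739 in edgeR). Mrps30 was at a log2 fold change of −0.03 and Mrps36 at 0.09 (edgeR adjusted p = 0.775 and 0.504).

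The S18 proteins are encoded by 3 related genes in mammals, whose products take different places in the ribosome. Mrps18a was at 30.3, 32.2 and 27.5 CPM in WT and 29.1, 25.7 and 31.3 CPM in KD. Mrps18b was at 28.3, 30.7 and 25.2 CPM in WT and 25.5, 26.5 and 25.5 CPM in KD. Mrps18c was at 14.7, 15.2 and 12.3 CPM in WT and 16.3, 14.3 and 15.3 CPM in KD. The groups overlapped for all 3 genes, with log2 fold changes of −0.06, −0.12 and 0.12 and standard errors of 0.09, 0.08 and 0.11 (edgeR adjusted p = 0.649, 0.324 and 0.448).

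A further 5 subunits of the mitochondrial ribosome do not carry an Mrp symbol, and 1 of them was higher in KD and none lower. The shares over all genes tested were 12% higher and 11.9% lower. Ptcd3, a pentatricopeptide repeat protein of the small subunit, was at 53.9, 56.0 and 55.5 CPM in WT and 63.4, 66.2 and 63.2 CPM in KD. The groups were well apart (log2 fold change 0.22, SE 0.05, edgeR adjusted p = 0.0153), and the call was lost without WT replicate 1 (adjusted p = 0.0521) or KD replicate 2 (0.0656). Dap3, the GTP-binding protein of the small subunit, had a log2 fold change of 0.10, Chchd1 −0.18, Aurkaip1 −0.01 and the large-subunit protein Gadd45gip1 −0.06, with edgeR adjusted p from 0.271 to 0.897.

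Of the 64 tested genes of the wider apparatus of mitochondrial translation, these 5 included, 3 were higher and 1 lower with a median of 0.0036. This is 4.69% higher and 1.56% lower, where 12% of all genes tested were higher and 11.9% lower. Among 27 assembly factors the higher one was Rpusd3, a putative pseudouridine synthase, at 2.19, 3.21 and 3.30 CPM in WT and 5.47, 4.82 and 4.97 CPM in KD (log2 fold change 0.81, SE 0.18, edgeR adjusted p = 0.0145). Among 15 translation factors it was Slirp, which stabilises mitochondrial mRNAs, at 9.89, 10.5 and 9.96 CPM in WT and 12.99, 12.5 and 13.2 CPM in KD (0.35, SE 0.09, edgeR adjusted p = 0.0279). Neither gene had overlapping groups, but Slirp no longer passed when any 1 library was left out (adjusted p from 0.0566 to 0.0796). Among 17 mitochondrial tRNA synthetases 0 were higher, also at an unadjusted p under 0.05, and 1 was lower, the valyl-tRNA synthetase Vars2, at 33.7, 36.8 and 36.6 CPM in WT and 30.2, 30.8 and 31.6 CPM in KD (−0.21, SE 0.06, edgeR adjusted p = 0.0384). The Vars2 call was lost without WT replicate 2 or 3 or any 1 KD library, with adjusted p from 0.0635 to 0.131. With the replicate block, 5 of the 64 genes were higher and 3 lower, where 18.6% of all genes tested were higher and 18.1% lower.

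Upstream of mitochondrial translation, 10 genes of the transcription and replication of mitochondrial DNA were tested, and 1 was higher and 2 lower. Of all genes tested, 12% were higher and 11.9% lower. Tfb2m, which opens the promoter for the mitochondrial RNA polymerase, was at 28.3, 28.7 and 31.3 CPM in WT and 21.8, 22.1 and 23.5 CPM in KD (log2 fold change −0.39, SE 0.07, edgeR adjusted p = 0.0062). Polg2, the accessory subunit of the mitochondrial DNA polymerase, had a log2 fold change of −0.60 (SE 0.17, edgeR adjusted p = 0.0314). Ssbp1, the mitochondrial single-stranded DNA binding protein, had a log2 fold change of 0.27 (SE 0.08, edgeR adjusted p = 0.0335). The Tfb2m call passed under 17 of 17 alternative settings, those of Polg2 under 11 and of Ssbp1 under 10. Polg2 lost its call without WT replicate 1 or 2 or KD replicate 1 or 2 (adjusted p from 0.0601 to 0.110), and Ssbp1 without any 1 library other than KD replicate 1 (0.0580 to 0.124).

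The genes of the cytosolic ribosome and of oxidative phosphorylation are set beside those of the mitochondrial ribosome for scale. Of 81 tested cytosolic ribosomal protein genes 0 were higher (0 also at an unadjusted p under 0.05 in edgeR) and 52 lower, with a median log2 fold change of −0.21. The middle 50% of that family lay below 0, whereas the quartiles of the 78 mitochondrial ribosomal genes were −0.09 and 0.11. Of 81 tested oxidative phosphorylation genes 2 were higher and 7 lower, with a median of −0.06. Of all genes tested, 12% were higher and 11.9% lower. The differences between these families were not tested.

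**Figure D4:**
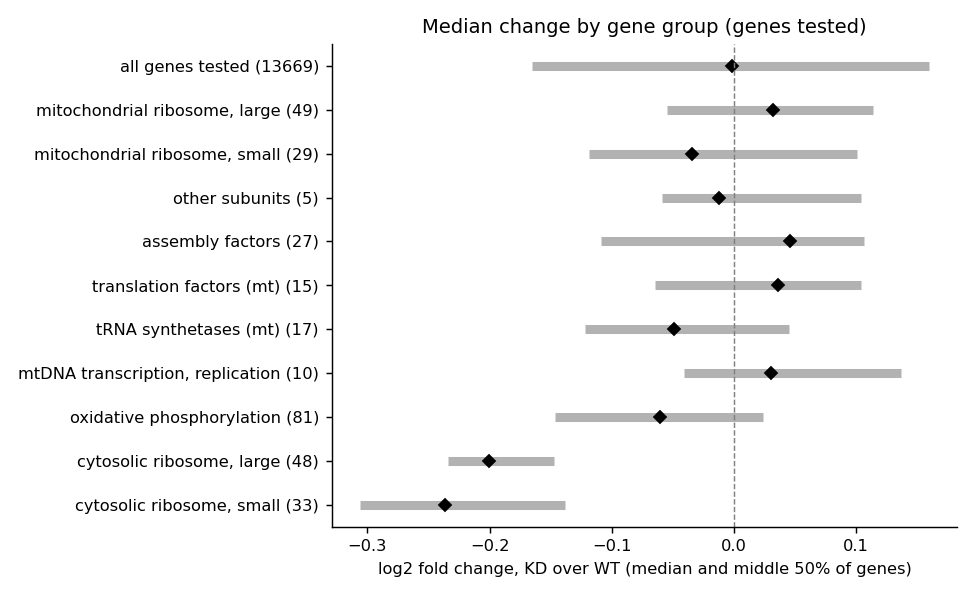
Median log2 fold change, KD over WT (horizontal axis, diamonds), with the range of the middle 50% of genes (grey bars) for each gene group, the number of tested genes in brackets. Both subunits of the mitochondrial ribosome lie around 0 (medians 0.03 and −0.03), and both subunits of the cytosolic ribosome lie below −0.1.

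The neighbours that start head to head with the mitochondrial ribosomal genes were looked at in the same fit. Of the 33 genes with such a neighbour, 31 had one that was tested, and in 1 case, Mrpl46 and Mrps11, the neighbours are both mitochondrial ribosomal genes. Of the 31 neighbours 3 were higher and 1 lower, where 12% of all genes tested were higher and 11.9% lower. These 4 neighbours were named after their values were seen. Mitd1, beside Mrpl30, moved by 0.46 on the log2 scale (edgeR adjusted p = 0.0391), while Mrpl30 was at 64.2, 63.3 and 57.9 CPM in WT and 49.5, 54.6 and 59.6 CPM in KD (−0.18, edgeR adjusted p = 0.119). Ncapd2, a condensin subunit beside Mrpl51, had a log2 fold change of 0.43 (edgeR adjusted p = 0.00623), and Eme2 beside Mrps34 one of 0.50 (0.0472). Rab6a, beside Mrpl48, had a log2 fold change of −0.20 (edgeR adjusted p = 0.0246). None of the mitochondrial ribosomal genes beside these 4 neighbours passed the threshold, and none of the neighbours of Mrpl13, Mrpl49 and Mrpl54 did. Exons of 33 of the 78 genes overlap an exon of another gene, 8 of them on the same strand.

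**Figure D5:**
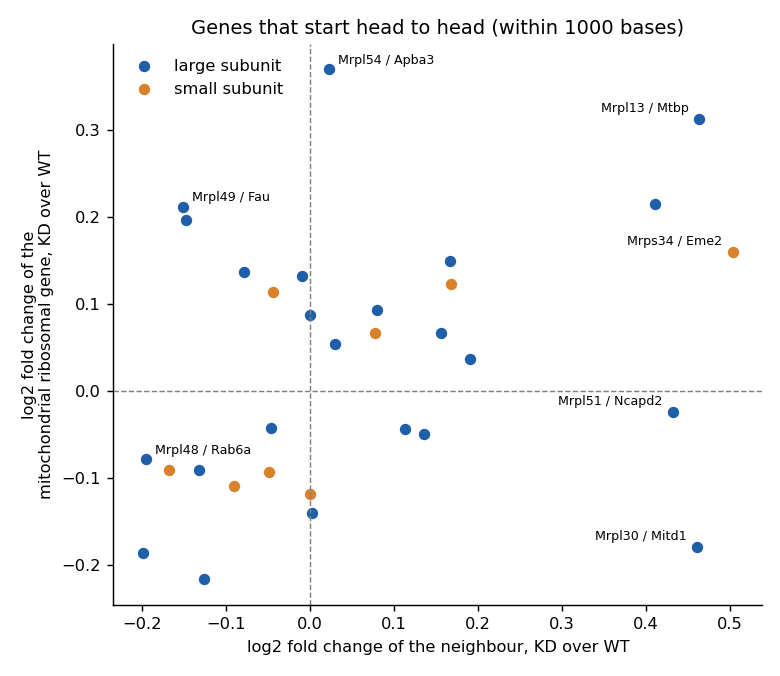
Log2 fold change, KD over WT, of the head-to-head neighbour (horizontal axis) and of the mitochondrial ribosomal gene (vertical axis) for the 31 genes whose neighbour was tested, coloured by subunit. Named pairs are those in which either gene passed an adjusted p of 0.05, and in none of them did both pass.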

How the data were processed

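The authors deposited estimated counts and TPM per gene for the 6 libraries, with 12 further columns (6 of FPKM and 6 of group averages) that were not used. The submitters' processing notes name HISAT2 2.2.1, Bowtie2 2.4.5 and RSEM 1.3.1 and the builds GRCm38 and mm10, without their roles. The gene annotation is not given in the sources used here. Between 89.3% and 89.9% of the deposited estimated counts were whole, as were those of all 5 genes called. Of the 78 genes, 9 had fractional counts, which reads shared with other genes can give.

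Estimated counts were rounded and genes were kept by filterByExpr (minimum count 10), which left 13669. The main test was the quasi-likelihood test of edgeR 4.0.16 in R 4.3.3 with TMM scaling, KD against WT, two-sided, with Benjamini-Hochberg adjustment over all 13669 genes and a threshold of 0.05. The standard error was taken from the fold change and its F statistic. The biological coefficient of variation was 7.69%. Deposited TPM values were tested with limma 3.58.1 on log2(TPM + 1), where fold changes of low genes are understated. Alternatives were other scalings and filters, DESeq2 1.42.0, limma-voom, a replicate block and leaving out libraries. The script was tested on simulated data. The groups were taken from the labels, and the columns named Ctrl were matched to the WT samples. Deviations from the group means correlated at 0.35, 0.32 and 0.18 (Pearson, across genes) between same-numbered WT and KD libraries and at −0.28 to −0.02 between the others, so the numbers were taken to pair the libraries.

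The members and lists were chosen with earlier results of these data known. The genes named were up to 8 rises and 8 falls past the threshold, the 5 highest and 3 lowest in TPM, 8 members chosen by name, and up to 3 rises and falls of each related list. Positions come from GENCODE vM21 (GRCm38) and promoter sequences from RefSeq (GRCm38.p6).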

Additional observations from a re-analysis of the deposited data

How the results depend on the processing

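Mrpl3 kept its direction and its side of the threshold under all 17 alternatives run. With upper-quartile scaling 2 of the 78 genes were higher and 1 lower (large subunit 2 and 1, small subunit 0 higher), with DESeq2 3 were higher (small subunit 0), and with a minimum of 1.2-fold 3 (small subunit 0). Over all genes tested, 2258 of 13669 passed with a minimum of 1.2-fold in either direction. Without a filter and with limma-voom the small subunit had 0 higher. Limma on log2(TPM + 1) and on log2(TPM + 0.1) gave 11 higher each, 8 large and 3 small. With the replicate block, which uses the pairing, 7 were higher and 2 lower, 1 large and 1 small, and without both replicate 2 libraries and with the block the small subunit had 0 higher. When 1 library was left out, the genes higher numbered 1 to 3 (large 1 to 3, small 0 to 0). The genes lower numbered 0 to 2 (large 0 to 1, small 0 to 1), and the lower ones, Mrpl45 and Mrps22, appeared without WT replicate 3. Over all genes tested, 13786 to 13805 in these fits, 779 to 1612 were higher and 797 to 1583 lower. With all 6 libraries 1646 were higher and 1631 lower. Of the 64 other mitochondrial translation genes, 5 were higher and 3 lower with the block, 2 lower with upper-quartile scaling, and 0 lower with library totals, no filter, DESeq2, either TPM fit or without both replicate 2 libraries. Leaving out 1 library gave 1 to 2 higher and 0 to 2 lower.

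The large-subunit median was 0.011 with upper-quartile scaling, 0.053 with library totals, 0.088 on log2(TPM + 1), 0.089 on log2(TPM + 0.1) and 0.070 without both replicate 2 libraries, and ran from −0.012 to 0.056 with 1 library left out. The small-subunit median was 0.046 on log2(TPM + 1), 0.047 on log2(TPM + 0.1) and 0.065 without both replicate 2 libraries, and ran from −0.084 to 0.026 with 1 library left out. All genes tested split into 1646 higher and 1631 lower, into 1888 and 1375 with library totals, 1392 and 1845 with upper-quartile scaling, 2076 and 1072 on log2(TPM + 1), and 2539 and 2470 with the block. The cause of these shifts was not tested.

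Fold changes near 0 turned their sign. On log2(TPM + 1) and log2(TPM + 0.1) Mrpl42 was at 0.018 in both, Mrpl17 at 0.045 and 0.049, Mrpl12 at 0.010 and 0.011, Mrps12 at 0.098 and 0.099, Mrps30 at 0.022 and 0.023 and Aurkaip1 at 0.044 in both. Mrpl17 was at 0.019 and Aurkaip1 at 0.0093 with library totals, and Mrpl17 at 0.0035 without a filter. Without both replicate 2 libraries Mrpl17 was at 0.070, Mrps18a at 0.065, Mrps30 at 0.043 and Gadd45gip1 at 0.072. With 1 library left out, Mrpl42 ran from −0.11 to 0.0099, Mrpl33 from −0.068 to 0.084, Mrpl17 from −0.047 to 0.038, Mrpl12 from −0.12 to 0.014, Mrps18a from −0.13 to 0.011, Mrps30 from −0.084 to 0.026, Aurkaip1 from −0.037 to 0.015 and Gadd45gip1 from −0.19 to 0.022. With 3 libraries a group the SE of a single gene had a median of 0.08, which limits the size of change that can be called.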
